A study of Sus scrofa with 60 samples.

Results

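Liver mRNA of pigs with a ligated bile duct was compared between pigs fed by vein with a soy lipid (SLE-BDL, 11 pigs) and pigs fed by mouth (ENT-BDL, 10 pigs), which make up 21 of the 60 libraries of the series. All 30335 features with a gene name were taken, and 16210 of them had enough counts to be tested. In both groups the cystic and common bile ducts were tied (bile duct ligation, BDL) in pigs delivered by cesarean section just before term, a jugular catheter was placed, and all pigs began on parenteral nutrition (PN). ENT-BDL pigs were then moved stepwise onto a milk replacer given through an orogastric tube, whereas SLE-BDL pigs stayed on total PN with Intralipid, an emulsion of soybean oil. Calories were matched, pigs of both sexes were used, and liver was taken on day 14. Route of feeding, lipid source, and the rest of the formula changed together and cannot be told apart in this comparison. The paper names the acute surgical obstruction and its short duration as limits of the model, as duct disease in infants is thought to develop more slowly.

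In obstructive cholestasis bile acids and bilirubin build up in the liver because bile cannot reach the gut. Food in the gut also sends signals to the liver that feeding by vein lacks, among them nutrients that arrive through the portal vein. The ileum makes the hormone FGF19, which restrains bile acid synthesis. The paper reports that plasma FGF19 was lower in ENT-BDL pigs than in enterally fed pigs without ligation. The liver in turn sets body iron through the peptide hormone hepcidin, makes most plasma proteins in its endoplasmic reticulum (ER), oxidizes drugs and bile acids, and stores glycogen.

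Libraries of the 21 pigs held 15172827 to 21374161 counts on named genes (median 17245488). Levels are given as counts per 1000000 (CPM) on TMM-scaled library sizes, as the lowest, the median, and the highest pig of a group. Differences are log2 fold changes of SLE-BDL over ENT-BDL with their standard error (SE) and the Benjamini-Hochberg adjusted p of edgeR's quasi-likelihood test over all tested genes. A gene is said to rise or fall, or to have a call, where the adjusted p was under 0.05, and to be called 2-fold where the fold change was also above 2. The libraries ENT-BDL 1 and ENT-sham 2, which carry the same identifier number in their labels, were by far the most alike of 1770 library pairs, with a chi-square per degree of freedom of 1.93 against 16.3 in the next pair. Whether 1 library stands under both labels was not tested, and the group sizes given here follow the labels. Without both of them 501 genes were called 2-fold, against 505 with them. SLE-sham 9 and SLE-sham 10 share 1 pig code in their labels, and no other libraries share one, so the 60 libraries stand under 59 codes and the 21 compared here under 21. Whether they came from 1 pig was not tested. They differed with a chi-square per degree of freedom of 34.4, and with both summed to 1 library 502 genes were called 2-fold in the comparison of BDL pigs, 501 of them among the 505. The labels give each pig an identifier number whose meaning they do not state, and 5 of the 7 numbers of these pigs occur in both groups. With the number as a block 541 genes were called 2-fold, 419 of them among the 505. Within the only number with over 2 pigs in both groups (3 ENT-BDL and 5 SLE-BDL), 183 were called, and 406 of the 409 called genes that could be tested there had the same sign. These pigs are also part of the fit that chose the 505 genes, so shared signs are no independent evidence within that number. Within it HAMP was at -6.91, TFRC at 1.96 (adjusted p = 0.104), HSPA5 at 1.13 (adjusted p = 0.0648), FMO5 at -3.61, DERL3 at 2.95, MT1D at 1.25 (adjusted p = 0.0623), and CYP7A1 at -2.77 (adjusted p = 0.144), and the values over all pigs follow below. Of the 198 named genes with a call that were tested there, 44 had a difference smaller by over 1.5 times or reversed, and 18 had one larger by over 1.5 times. ALAS1 was at 0.89 there against 1.93 over all pigs, A1BG at -0.54 against -1.47, ELOVL2 at 0.04 against 0.61, UGT1A6 at 0.10 against 0.45, and PRLR at 0.07 against 0.47, none of them with a call (adjusted p = 0.0689, 0.381, 0.931, 0.857, and 0.93). In whole tissue, fewer cells of a type and less RNA per cell cannot be told apart.

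In SLE-BDL pigs 1602 genes rose (9.88% of those tested) and 1532 fell (9.45%), together 19.3%. Of these, 220 rose (1.36%) and 285 fell (1.76%) more than 2-fold, together 505 (3.12%). The median log2 fold change of all tested genes was -0.01. All SLE-BDL pigs lay above all ENT-BDL pigs in 55 genes (0.339%) and below them in 68 (0.419%). Against this background, genes of ER folding and of aminoacyl-tRNA synthesis rose in most of their members. Hypoxia genes rose in 15 of 27, but several of these leaned on few pigs, as given below. T cell, coagulation, and cell cycle genes fell in several members and rose in none.

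**Figure D1:**
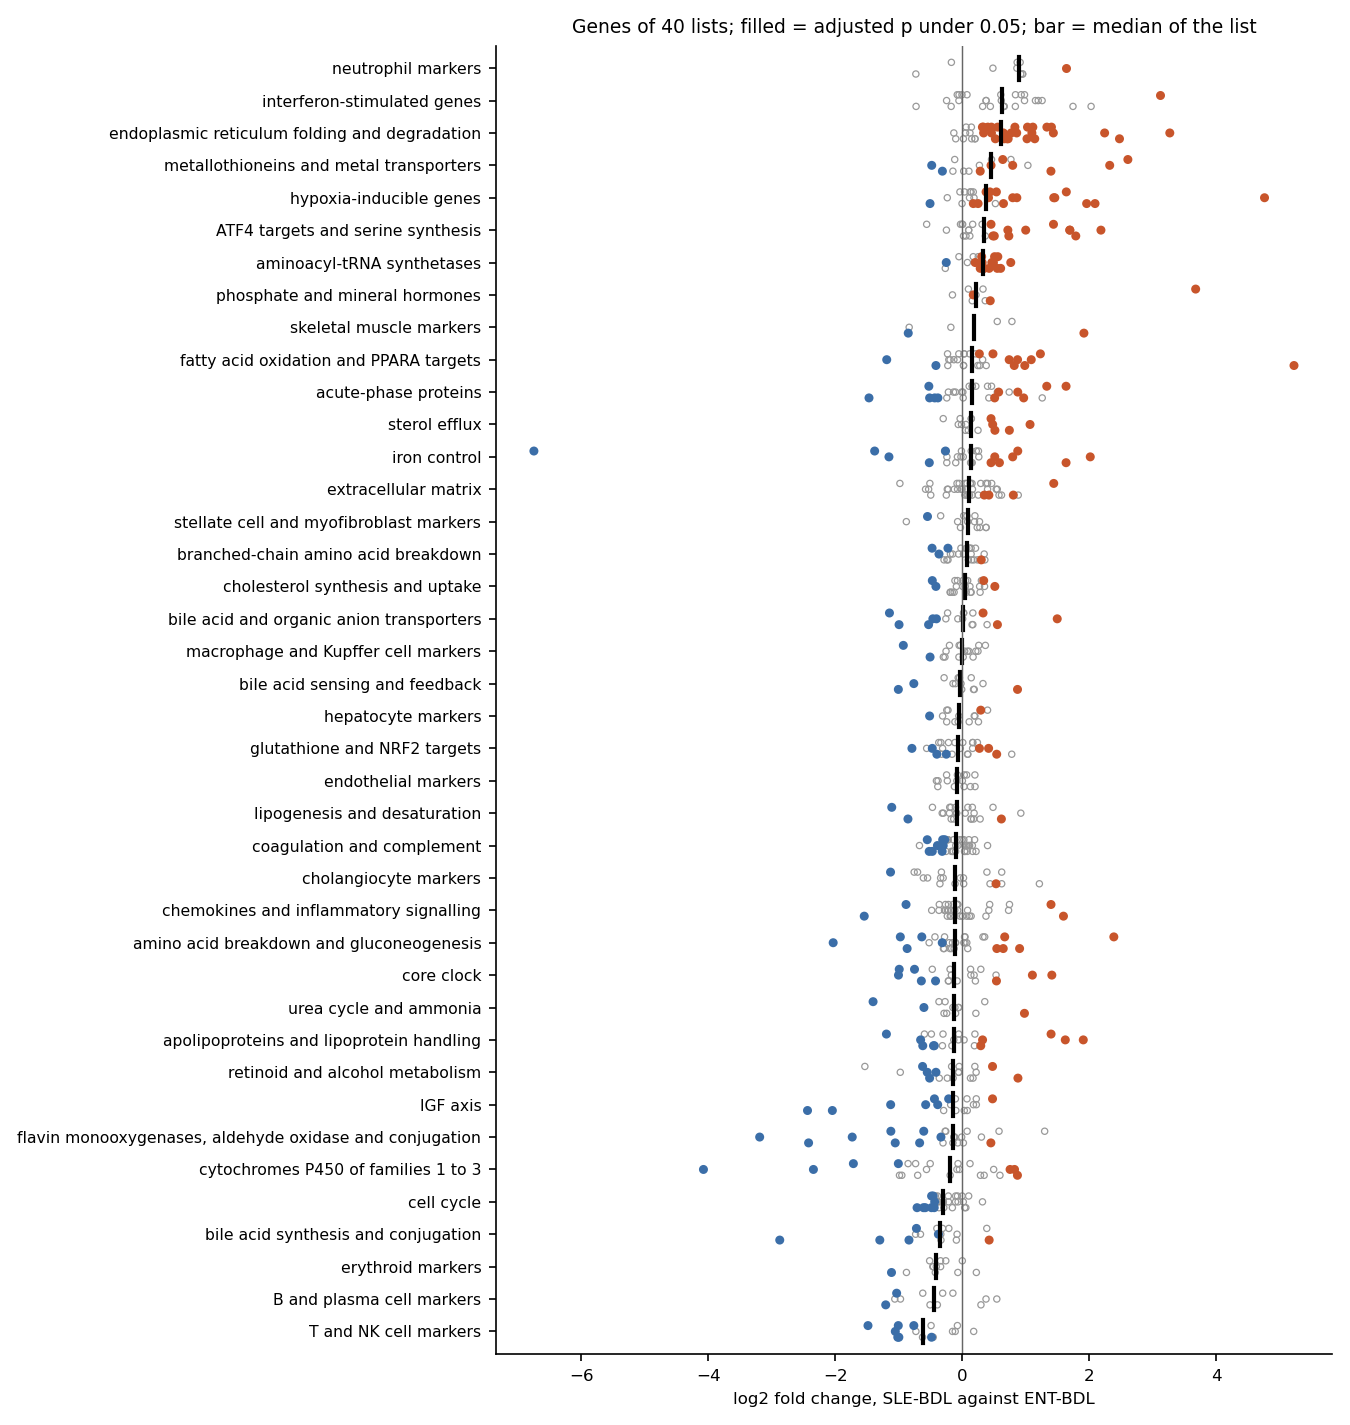
Log2 fold change of SLE-BDL over ENT-BDL (x axis) for each tested gene of 40 lists (y axis, ordered by the list's median, shown as a bar). Filled points passed an adjusted p of 0.05 and open points did not. All 26 filled points of the ER folding list lie right of 0, and HAMP lies at the far left of the iron list at -6.74.

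Hepcidin, the hormone that blocks iron release into blood, had the largest fall of the genes named here. HAMP (chromosome 6, 44785863 to 44787303) was at 34.2, 73.0, and 128 CPM in ENT-BDL and at 0, 0.442, and 3.41 CPM in SLE-BDL, a log2 fold change of -6.74 (SE 0.49, adjusted p = 1.9e-15). Every SLE-BDL pig lay below every ENT-BDL pig. ATOH8, a transcription factor of the hepcidin pathway, fell by 1.38 on the log2 scale (SE 0.18, adjusted p = 9.9e-08), from a median of 9.01 to 3.27 CPM, again without overlap. BMP6, the ligand through which liver iron drives hepcidin, fell by 1.16 (SE 0.20, adjusted p = 1.6e-05), and the receptor genes ACVR1 and BMPR1A fell by 0.52 and 0.27. The BMP target ID1 (log2 difference -0.24, adjusted p = 0.386) and the pathway inhibitors SMAD6 (0.13) and SMAD7 (-0.02) did not pass. BMPR1A lost its call without ENT-BDL 4 (-0.15, adjusted p = 0.135).

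Several genes of iron uptake and storage rose. TFRC (chromosome 13, 133976765 to 133997554), the receptor for iron-loaded transferrin, was at 22.0, 32.8, and 44.8 CPM in ENT-BDL and at 56.2, 118, and 284 CPM in SLE-BDL (a log2 change of 2.01, SE 0.19, adjusted p = 1.8e-11), with no overlap. FTH1, the ferritin heavy chain, rose by 0.58, SLC11A2, an importer of ferrous iron, by 0.45, SLC39A14, which takes up unbound iron and zinc, by 0.79, and HFE2 (hemojuvelin, a BMP coreceptor) by 0.51. The iron exporter gene SLC40A1 (0.22, adjusted p = 0.234) and the iron sensor TFR2 (-0.10, adjusted p = 0.457) did not pass. Of the 27 iron genes tested 7 rose, with the plasma proteins CP and HP below among them, and 5 fell. Outside that list ALAS1, the first enzyme of heme synthesis, rose by 1.93 (SE 0.25, adjusted p = 4.8e-08), with all SLE-BDL pigs above the ENT-BDL range of 49.2 to 80.4 CPM.

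**Figure D2:**
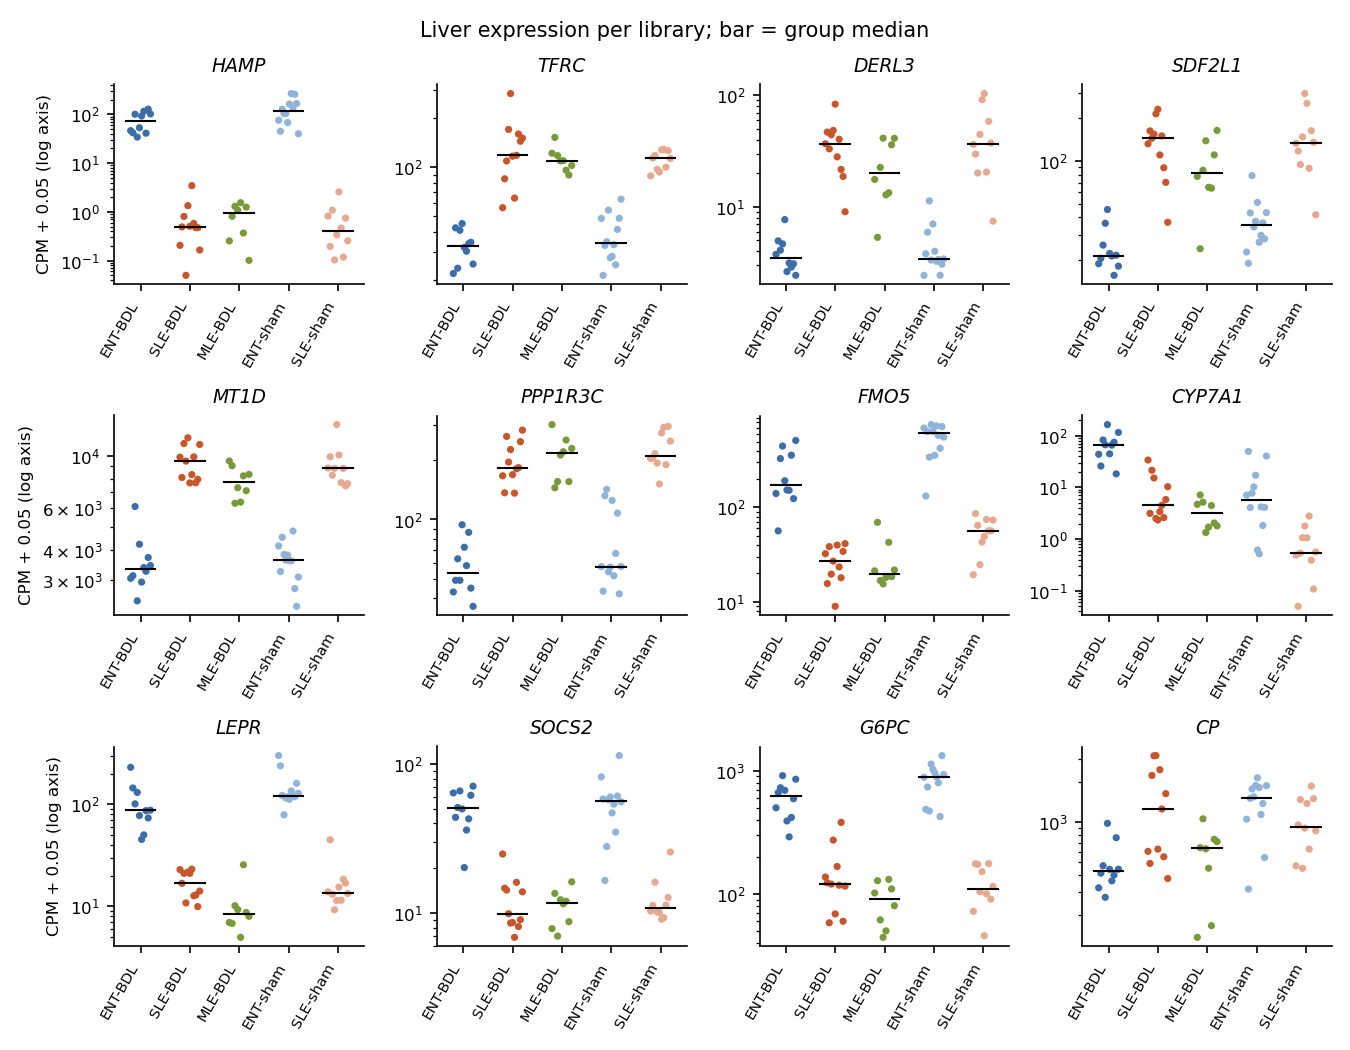
CPM plus 0.05 on log axes (y) of 12 genes in each library of 5 groups (x), with the group median as a bar. HAMP, TFRC, DERL3, MT1D, PPP1R3C, FMO5, and LEPR separate ENT-BDL from SLE-BDL pigs without overlap.

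The ER folding machinery rose in 26 of 36 tested genes and fell in none. In 11 the rise was called 2-fold, in 7 the groups did not overlap, and the list median was 0.60. DERL3 (chromosome 14, 49871077 to 49875022), which helps to move misfolded proteins out of the ER, was at 2.39, 3.40, and 7.64 CPM in ENT-BDL and at 8.99, 36.7, and 83.2 CPM in SLE-BDL (a log2 change of 3.26, SE 0.39, adjusted p = 1.4e-08). SDF2L1, a partner of ER chaperones, rose from a median of 21.5 to 144 CPM (2.47, SE 0.30), and CRELD2, a gene induced by ER stress, from 42.1 to 173 CPM (2.24, SE 0.28). HSPA5 (chromosome 1, 265930044 to 265934959), which encodes the main ER chaperone BiP, was at 424, 687, and 1190.1 CPM in ENT-BDL and at 1058, 1832, and 3112 CPM in SLE-BDL (1.43, SE 0.19, adjusted p = 1.2e-07). The groups were fully apart for DERL3 and CRELD2, and 10 of 11 SLE-BDL pigs lay above the enteral range for HSPA5 and 10 of 11 for SDF2L1.

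The remaining chaperones rose by less. HYOU1 (1.40), DNAJB11 (1.33), MANF (1.14), HERPUD1 (1.11), PDIA4 (1.09), SEL1L (1.02), and HSP90B1 (1.02) passed the 2-fold threshold, and they serve the folding of new proteins, disulfide exchange, and the removal of misfolded ones. CALR, a chaperone of glycoproteins, rose by 0.77 without overlap, and DNAJB9, a BiP cochaperone, by 0.72. XBP1, whose spliced form turns on many of these genes, did not pass (0.06, SE 0.09, adjusted p = 0.693), and gene counts do not separate its spliced form. In the map of these genes by pig all SLE-BDL pigs lay above the ENT-BDL mean in all 11 of the 2-fold chaperone genes, with the palest rows in SLE-BDL 11.

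**Figure D3:**
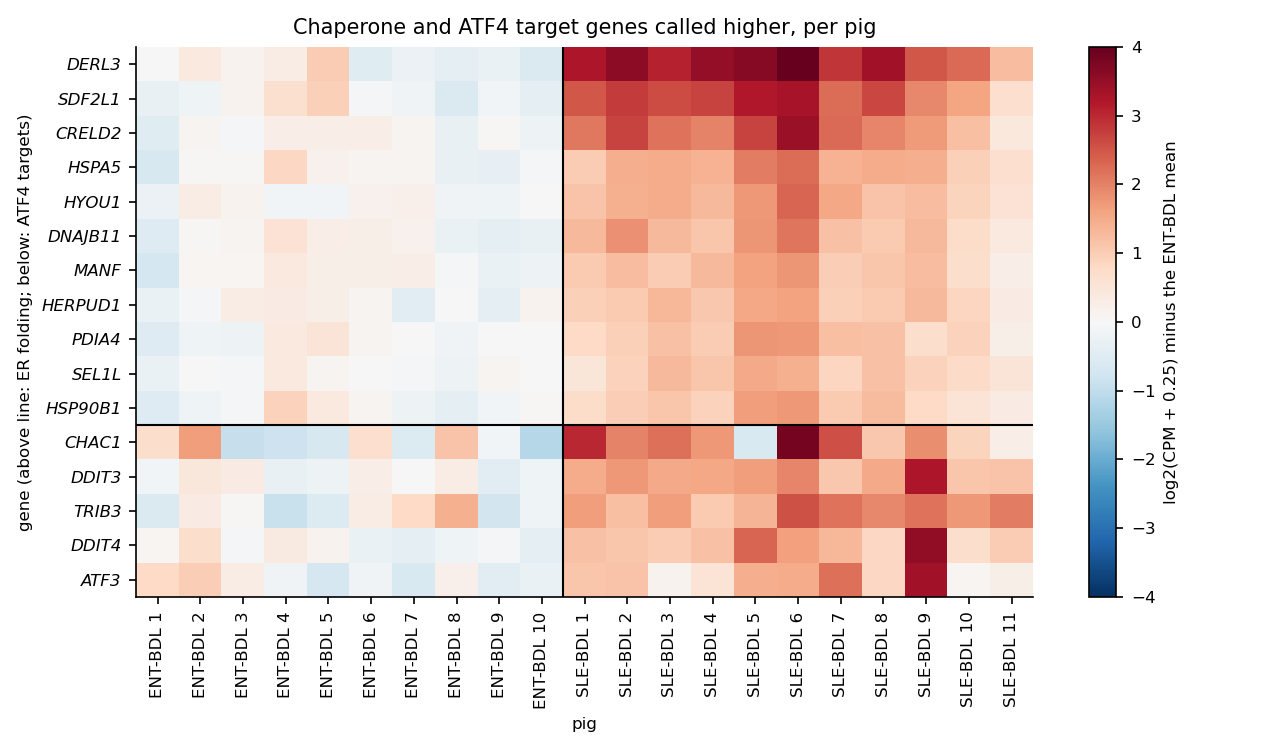
Log2(CPM + 0.25) minus the mean of the ENT-BDL pigs (color) for ER folding genes (rows above the line) and ATF4 targets (rows below) called 2-fold higher, in each of the 21 pigs (columns). All SLE-BDL columns are red in the ER rows, and CHAC1 in SLE-BDL 5 is the only blue cell of that group.

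Targets of ATF4, the transcription factor of the response to amino acid shortage and ER stress, rose in 11 of 24 genes and fell in none. ATF4 itself rose by 0.48 (SE 0.09, adjusted p = 3.9e-05). DDIT3, which encodes the stress factor CHOP, was at 3.76, 4.97, and 7.28 CPM in ENT-BDL and at 11.2, 15.6, and 51.3 CPM in SLE-BDL (1.78, SE 0.20, adjusted p = 2.3e-09), without overlap. TRIB3 (1.69), CHAC1 (2.18), and ATF3 (1.43), all induced in this response, and DDIT4 (1.69), an inhibitor of mTORC1, were called 2-fold, and ASNS, asparagine synthetase, rose by 1.00. The serine synthesis genes PHGDH (0.02, adjusted p = 0.937) and PSAT1 (-0.03, adjusted p = 0.898) did not pass. Without SLE-BDL 5, 7, and 9, ATF3 was at 0.69 (adjusted p = 0.113).

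Aminoacyl-tRNA synthetases, which load tRNAs with amino acids, rose in 14 of 20 genes, none of them 2-fold, with a list median of 0.32. The largest rises were those of TARS (0.76, SE 0.11, adjusted p = 1.4e-06), SARS (0.60), VARS (0.56), and AARS (0.55), the enzymes for threonine, serine, valine, and alanine. IARS, for isoleucine, rose by only 0.30 (SE 0.06), yet all SLE-BDL pigs, at 97.9 to 125 CPM, lay above the ENT-BDL range of 75.9 to 93.6 CPM. LARS, for leucine, did not pass (0.08, adjusted p = 0.669), and QARS, for glutamine, had the only lower call (-0.25, adjusted p = 0.0333). QARS lost its call without ENT-BDL 4, 5, or 8 or SLE-BDL 2, 3, 6, or 11 (nearest to 0 -0.14, highest adjusted p 0.179).

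Metallothioneins bind zinc and copper. MT1D (chromosome 6, 18650985 to 18652317) was at 2447, 3319.8, and 6105 CPM in ENT-BDL and at 7676, 9483, and 11884 CPM in SLE-BDL (1.39, SE 0.13, adjusted p = 5.2e-12), with no overlap. MT3 rose by 2.32 (SE 0.31), from a median of 44.9 to 243 CPM, and MT4, at most 5.13 CPM in any of the 21 pigs, by 2.60. MT1A overlapped between the groups (0.46, SE 0.22, adjusted p = 0.128). Metallothionein genes share sequence, so that the split of reads among them is uncertain. SLC30A1, an exporter of zinc, rose by 0.64, and SLC30A10, an exporter of manganese, did not pass (0.10). SLC39A8 and SLC39A10, importers of zinc, fell by 0.48 and 0.31, so that 7 of 17 genes of this list rose and 2 fell. SLC39A10 lost its call without ENT-BDL 1, 3, 4, 9, or 10 or SLE-BDL 1, 2, 5, 6, 7, or 9 (nearest to 0 -0.27, highest adjusted p 0.0919).

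Hypoxia-inducible genes rose in 15 of 27 and fell in 1. EPO, erythropoietin, which the fetal liver makes before the kidney takes over, was at 0, 0.103, and 0.345 CPM in ENT-BDL, at most 8 counts in a pig, and at 0.466, 1.14, and 22.6 CPM in SLE-BDL (4.76, SE 0.64, adjusted p = 1.3e-07). All SLE-BDL pigs lay above all ENT-BDL pigs. SLC2A1, the glucose transporter GLUT1, rose from a median of 16.9 to 44.0 CPM (1.44, SE 0.18), and EPAS1, which encodes the oxygen-regulated factor HIF2A, from 101 to 143 CPM (0.65, SE 0.11), both without overlap. PFKFB3, an activator of glycolysis, rose by 2.09, HK2 (hexokinase) by 1.64, EGLN3 (an oxygen sensor) by 1.46, LDHA (lactate dehydrogenase) by 0.79, and VEGFA, the vessel growth factor, by 0.43. P4HA1, a collagen hydroxylase, was the member that fell (-0.51, adjusted p = 0.0274). LDHA kept its call at 0.52 without SLE-BDL 5. P4HA1 lost its call without ENT-BDL 1 or 10 or SLE-BDL 10 (nearest to 0 -0.47, highest adjusted p 0.0551).

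Several hypoxia genes leaned on few pigs. Without SLE-BDL 5, 7, and 9, EGLN3 was at 0.82 (adjusted p = 0.0623), LDHA at 0.37 (adjusted p = 0.103), and HK2 at 1.20 (adjusted p = 0.0742). EPO, SLC2A1, and PFKFB3 kept their calls without those 3 pigs, at 3.64, 1.13, and 1.59. FGF23, a phosphate-lowering hormone made mainly by bone, was at 0.277, 1.02, and 2.58 CPM in ENT-BDL and at 1.14, 5.25, and 69.2 CPM in SLE-BDL (3.67, SE 0.55, adjusted p = 1.4e-06). SLE-BDL 9 and 5 held its highest values, 69.2 and 47.7 CPM, and without the 3 pigs its difference was 2.28 (adjusted p = 7.5e-05). The phosphate importers SLC20A1 (0.44) and SLC20A2 (0.17) were the other members of the 9 phosphate and mineral genes to rise, and none fell. SLC20A1 lost its call without ENT-BDL 5 or SLE-BDL 9 (nearest to 0 0.26, highest adjusted p 0.143). SLC20A2 lost its call without ENT-BDL 4 or SLE-BDL 4, 5, 7, or 8 (nearest to 0 0.14, highest adjusted p 0.0953).

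Bile acid synthesis genes fell in 5 of 16 and rose in 1, and 14 of the 16 differences were below 0. CYP7A1 (chromosome 4, 74343101 to 74372628), the rate-limiting enzyme of bile acid synthesis, was at 18.2, 66.0, and 164 CPM in ENT-BDL and at 2.29, 4.46, and 33.7 CPM in SLE-BDL (-2.88, SE 0.56, adjusted p = 1.5e-04). SLE-BDL 1 and 3, at 33.7 and 21.4 CPM, were the pigs inside the enteral range. SLC27A5, which activates bile acids for conjugation, fell by 1.30, CYP39A1, an oxysterol hydroxylase, by 0.84, AKR1D1, a reductase of bile acid precursors, by 0.72, and ACOX2, of side chain shortening, by 0.38. CYP27A1, of the alternative route (-0.31, adjusted p = 0.0548), and CYP8B1, which sets the share of cholic acid (-0.66, adjusted p = 0.533), did not pass. HSD3B7, a dehydrogenase of the early steps, rose by 0.42 (adjusted p = 0.0201). HSD3B7 lost its call without ENT-BDL 4 or SLE-BDL 5 (nearest to 0 0.33, highest adjusted p 0.07).

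Among the 14 genes of bile acid sensing NR0B2, the repressor SHP that bile acids induce through the receptor FXR, rose by 0.87 (SE 0.16, adjusted p = 5.3e-05), from a median of 16.2 to 30.4 CPM. KLB, the liver coreceptor for FGF19 and FGF21, fell by 0.76 (SE 0.15, adjusted p = 1.3e-04), and NR1I3, the xenobiotic receptor CAR, by 1.01. NR1H4, which encodes FXR, did not pass (-0.11, adjusted p = 0.256), and FGF19 had too few counts to be tested.

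Bile acid and organic anion transporters rose in 3 of 18 and fell in 5. The carriers SLCO1A2 (-1.0), SLC22A7 (-0.53), and ABCC6 (-0.41) were among those that fell. ABCB11, the bile salt export pump, had a difference of -0.46 (adjusted p = 0.0404), and 9 of 11 SLE-BDL pigs lay below the lowest ENT-BDL pig, at 521 CPM, whereas SLE-BDL 7 at 1299.6 CPM lay above them all. SLC51A, a subunit of the basolateral bile acid exporter, was at 1.49 (adjusted p = 0.0467), with SLE-BDL 7 at 118 CPM and no other SLE-BDL pig above 29.9 CPM. ABCB1, a drug export pump, and SLCO2B1, an uptake carrier, rose by 0.55 and 0.33. The main uptake carrier SLC10A1 (-0.26), the canalicular pump ABCC2 (0.00), the basolateral pumps ABCC3 (0.16) and ABCC4 (0.39), and SLC51B (0.02) did not pass. ABCC4 did pass with the identifier number as a block (0.63, adjusted p = 9.6e-04) and over shared identifier numbers (0.55, adjusted p = 0.0283). It also passed without ENT-BDL 1 and ENT-sham 2 (0.44, adjusted p = 0.0279). ABCC6 lost its call without ENT-BDL 10 (-0.34, adjusted p = 0.0543). ABCB11 lost its call without ENT-BDL 1, 2, 4, 5, 9, or 10 or SLE-BDL 1, 2, 3, 4, 5, 6, 9, or 10 (nearest to 0 -0.40, highest adjusted p 0.0859). It moved to -0.73 without SLE-BDL 7. SLC51A lost its call without ENT-BDL 1, 3, 4, 5, 6, 7, 8, 9, or 10 or SLE-BDL 6, 7, or 9 (nearest to 0 0.42, highest adjusted p 0.587). SLCO2B1 lost its call without ENT-BDL 4 or SLE-BDL 8 (nearest to 0 0.27, highest adjusted p 0.064).

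Drug-metabolizing enzymes held some of the largest falls. FMO5 (chromosome 4, 100336769 to 100372744), a flavin monooxygenase, was at 56.3, 172, and 514 CPM in ENT-BDL and at 8.85, 26.8, and 41.2 CPM in SLE-BDL (-3.19, SE 0.33, adjusted p = 1.9e-10), and FMO1 fell from a median of 618 to 178 CPM (-1.73, SE 0.28), both without overlap. AOX1, aldehyde oxidase, fell by 2.42 (SE 0.25, adjusted p = 2.2e-10), with 10 of 11 SLE-BDL pigs below every ENT-BDL pig. SULT2A1, which sulfates bile acids and steroids, fell by 1.06, and GSTA1, a glutathione transferase, by 1.13. In the list of flavin monooxygenases, aldehyde oxidase, and conjugating enzymes 8 of 23 fell and 1, the glucuronosyltransferase UGT1A6, rose (0.45). Outside the lists UOX, urate oxidase, fell by 2.18. UGT1A6 lost its call without SLE-BDL 8 (0.38, adjusted p = 0.0515).

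Among cytochromes P450 of families 1 to 3 and their regulators 4 of 23 fell, all called 2-fold, and 3 rose. CYP2E1, the ethanol-oxidizing P450, fell from a median of 312 to 41.3 CPM (-2.34, SE 0.54, adjusted p = 0.00126). CYP2A19 was at 0.302, 1.20, and 23.0 CPM in ENT-BDL and at 0.0640, 0.243, and 0.466 CPM in SLE-BDL (-4.08, SE 0.75, adjusted p = 6.2e-05), with the enteral values led by ENT-BDL 10 and 7 at 23.0 and 6.85 CPM. CYP2B22, at most 1.94 CPM in any of the 21 pigs, fell by 1.72. CYP1A2 (-0.99, adjusted p = 0.0829) and CYP3A29 (-0.74, adjusted p = 0.139) did not pass. CYP2C42 (0.82), CYP2D25 (0.87), and TIPARP, an induced brake on the dioxin receptor (0.75), rose. Members of a P450 family share sequence, which makes single values uncertain. CYP2B22 lost its call without ENT-BDL 7 or 8 (nearest to 0 -1.36, highest adjusted p 0.0757). CYP2C42 lost its call without ENT-BDL 4 or 5 or SLE-BDL 6 or 9 (nearest to 0 0.60, highest adjusted p 0.116). CYP2D25 lost its call without ENT-BDL 1, 2, or 7 or SLE-BDL 4, 5, or 7 (nearest to 0 0.67, highest adjusted p 0.0983).

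Of 18 genes of the IGF axis 7 fell and 1 rose, and G6PC and LEPR, which are not on that list, also fell. IGFBP1, an IGF-binding protein that rises in fasting, was at 317, 572, and 895 CPM in ENT-BDL and at 10.1, 56.9, and 367 CPM in SLE-BDL (-2.44, SE 0.45, adjusted p = 5.7e-05). G6PC, the last step of glucose release, fell from a median of 629 to 120.3 CPM (-2.03, SE 0.28, adjusted p = 3.3e-07), whereas PCK1, an earlier step, did not pass (-0.52, adjusted p = 0.281). For both IGFBP1 and G6PC 10 of 11 SLE-BDL pigs lay below the enteral range. LEPR, the leptin receptor, was at 45.2, 87.0, and 230.3 CPM in ENT-BDL and at 9.89, 16.8, and 23.1 CPM in SLE-BDL (-2.60, SE 0.29, adjusted p = 2.6e-09), and SOCS2, a feedback target of growth hormone, fell from a median of 50.5 to 9.85 CPM (-2.05, SE 0.25). IGFBP2 fell by 1.13, while the growth hormone receptor GHR (-0.29), IGF1 (-0.18), and IGF2 (0.08) did not pass. The gene of the axis that rose was PRLR, the prolactin receptor (0.47). PRLR lost its call without ENT-BDL 4, 6, 7, 8, or 10 or SLE-BDL 4, 5, 6, 7, 9, or 11 (nearest to 0 0.34, highest adjusted p 0.145).

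Of 3 glycogen genes that belong to no list and were picked after their values were seen, 2 rose and 1 fell. PPP1R3C, which tethers a phosphatase to glycogen and favors its synthesis, was at 36.4, 53.8, and 94.0 CPM in ENT-BDL and at 136, 183, and 282 CPM in SLE-BDL (1.73, SE 0.20, adjusted p = 3.3e-09). Its relative PPP1R3B rose by 2.05 (SE 0.30, adjusted p = 8.3e-07), and for both the groups did not overlap. GYS2, the liver glycogen synthase, fell from a median of 213 to 64.7 CPM (-1.65, SE 0.20, adjusted p = 1.9e-08).

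Genes of fatty acid oxidation and of the fasting factor PPARA rose in 9 of 28 and fell in 2. CD36, a fatty acid importer, rose by 1.23, FGF21, a fasting hormone, by 1.08, PLIN2, a lipid droplet coat, by 0.98, and CPT2, of mitochondrial fatty acid import, by 0.87. PDK4, which spares glucose in fasting, fell by 1.19 (SE 0.22, adjusted p = 6.8e-05), and VNN1, a pantetheinase, by 0.42. CPT1A, the gatekeeper of mitochondrial oxidation, did not pass (0.38, adjusted p = 0.0639). ANGPTL4, an inhibitor of lipoprotein lipase, had a difference of 0.82 (adjusted p = 0.0461), which was -0.14 without SLE-BDL 5, 7, and 9. ANGPTL4 lost its call without ENT-BDL 1, 4, 6, 7, 8, or 9 or SLE-BDL 5, 7, or 9 (nearest to 0 0.22, highest adjusted p 0.559).

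Of 24 lipogenesis genes 3 passed, and of 24 genes of cholesterol synthesis and uptake 4 did, against 19.3% of all tested genes. In lipogenesis ELOVL2, an elongase of polyunsaturated fatty acids, rose (0.61) and TKFC (-1.11) and PKLR (-0.86), of fructose breakdown and glycolysis, fell, while FASN (0.09), ACACA (-0.14), SCD (0.48, adjusted p = 0.108), FADS1 (0.13), FADS2 (-0.09), and SREBF1 (0.28) were among the 21 of 24 that did not pass. In cholesterol synthesis and uptake 20 of 24 did not pass, SQLE (-0.13) among them, NSDHL (0.34) and INSIG1 (0.51) rose, and PMVK (-0.42) and INSIG2 (-0.47) fell. Sterol efflux genes rose in 5 of 15 and fell in none, led by NPC1L1, which takes cholesterol back from bile (1.06, SE 0.31, adjusted p = 0.00968), and the cholesterol esterifier SOAT1 (0.74), with NPC1 (0.51), LPCAT3 (0.48), and STARD4 (0.45) behind. NPC1L1 without SLE-BDL 5, 7, and 9 was at 0.81 (adjusted p = 0.0953). INSIG1 lost its call without ENT-BDL 7 or SLE-BDL 5, 7, or 9 (nearest to 0 0.40, highest adjusted p 0.0921). PMVK lost its call without ENT-BDL 4 (-0.31, adjusted p = 0.0592).

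Apolipoprotein and lipoprotein genes split, with 5 of 21 higher and 5 lower. APOF, an inhibitor of lipid transfer between lipoproteins, fell from a median of 245 to 129 CPM without overlap (-1.20, SE 0.16, adjusted p = 1.3e-07). APOM (-0.66), APOH (-0.45), and APOC4 (-0.44) fell by less. APOA4, of lipid absorption, rose by 1.90 (SE 0.45, adjusted p = 0.0018), and LPL (lipoprotein lipase, 1.40), LIPG (endothelial lipase, 1.62), APOC2 (0.32), and APOB (0.29) also had higher calls. Without SLE-BDL 5, 7, and 9, APOA4 was at 0.93 (adjusted p = 0.144) and LIPG at -0.48 (adjusted p = 0.295). APOC4 lost its call without ENT-BDL 3, 4, 5, 6, 7, 8, or 10 or SLE-BDL 2, 3, 5, 6, 9, or 10 (nearest to 0 -0.33, highest adjusted p 0.14). LPL lost its call without ENT-BDL 1, 7, 9, or 10 or SLE-BDL 4, 5, 8, or 9 (nearest to 0 1.23, highest adjusted p 0.0709). LIPG lost its call without SLE-BDL 9 (0.18, adjusted p = 0.755). APOB lost its call without ENT-BDL 1, 7, or 8 or SLE-BDL 5, 10, or 11 (nearest to 0 0.25, highest adjusted p 0.0769).

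Amino acid breakdown genes rose in 5 of 30 and fell in 5. TDO2, the first step of tryptophan breakdown, was at 566, 706, and 987 CPM in ENT-BDL and at 219, 354, and 464 CPM in SLE-BDL (-0.98, SE 0.12, adjusted p = 1.5e-08), without overlap. FBP2, a gluconeogenic phosphatase, fell by 0.87, and KYNU, also of tryptophan breakdown, by 0.32, beside G6PC. HPD, of tyrosine breakdown, rose by 0.90, GLS2, liver glutaminase, by 0.67, AMT, of glycine cleavage, by 0.64, and GOT1, an aspartate transaminase, by 0.54, and TAT, tyrosine transaminase, did not pass (0.02). Without SLE-BDL 5, 7, and 9, HPD was at 0.62 (adjusted p = 0.0523), GLS2 at 0.42 (adjusted p = 0.0969), and GOT1 at 0.28 (adjusted p = 0.26), so that of these 4 risers AMT alone kept its call. KYNU lost its call without ENT-BDL 4, 5, or 10 or SLE-BDL 5 (nearest to 0 -0.26, highest adjusted p 0.0731).

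In the urea cycle NAGS, whose product switches the cycle on, rose by 0.98 (SE 0.15, adjusted p = 3.1e-06), RHBG, an ammonia transporter, fell by 1.41, and GLUD1, glutamate dehydrogenase, by 0.61. The cycle enzymes CPS1 (-0.25), OTC (-0.15), ASS1 (-0.06), ASL (0.21), and ARG1 (-0.12) did not pass, and 11 of 14 genes of the list did not. In the breakdown of branched-chain amino acids MCCC2 rose (0.30) and AUH (-0.37), HIBCH (-0.23), and ACAT1 (-0.48) fell, of 25 tested. AUH lost its call without ENT-BDL 4 (-0.29, adjusted p = 0.0527). HIBCH lost its call without ENT-BDL 4, 6, 7, 8, or 10 or SLE-BDL 2, 5, or 6 (nearest to 0 -0.19, highest adjusted p 0.0833).

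Of the other genes with the largest fold changes NANOS1, an RNA-binding protein, rose from 0.314, 1.13, and 1.5 CPM to 2.55, 6.07, and 9.88 CPM without overlap (2.54, SE 0.29, adjusted p = 4.4e-09). ANKRD33, an ankyrin repeat protein, rose from a median of 3.46 to 20.1 CPM (2.73, SE 0.41), and ESM1, a proteoglycan of endothelial cells, fell from 6.33 to 1.73 CPM (-1.83, SE 0.36).

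Some of the largest rises were led by the same few SLE-BDL pigs. Of the 220 genes called 2-fold higher, the highest SLE-BDL value belonged to pig 9 in 56, to pig 7 in 44, to pig 6 in 34, and to pig 5 in 33, and to any other pig in at most 10. Of the SLE-BDL libraries that of pig 9 had the fewest genes with a count (18595) and the highest share of mitochondrial mRNA (4.69%), whose part in its values was not tested. MFSD2A, a transporter of lysophospholipids, had the largest rise of the named genes, from 0.0553, 0.913, and 1.83 CPM to 0.288, 3.06, and 172 CPM (5.22, SE 0.79, adjusted p = 2e-06). In SLE-BDL its values were 172, 122, 20.5, and 16.3 CPM in pigs 7, 9, 6, and 5, and the other pigs reached at most 3.73 CPM. NOCT, a phosphatase with a daily rhythm, was at 252 CPM in pig 9, 51.0 in pig 5, and 13.3 in pig 7, against at most 6.67 CPM in ENT-BDL (3.16, SE 0.64, adjusted p = 2.6e-04). SDS, serine dehydratase, had medians of 4.99 and 6.01 CPM, and pigs 9, 7, and 5 stood out at 152, 81.0, and 38.2 CPM (2.38, SE 0.56, adjusted p = 0.00157). NOCT kept its call at 1.41 without SLE-BDL 9. SDS kept its call at 1.58 without SLE-BDL 9.

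Without pigs 5, 7, and 9, a choice made after their values were seen, NOCT was at 0.05 (adjusted p = 0.959), SDS at 0.01 (adjusted p = 0.99), and ETNPPL, a phosphoethanolamine lyase with a difference of 2.37 in all pigs, at 0.90 (adjusted p = 0.177). MFSD2A kept its call, at 2.44 (adjusted p = 0.00277), and 376 genes were called 2-fold in place of 505. Of the 201 named genes with a call 58 lost it in that fit, among them ABCB1 (0.47), LRAT (-0.36), MCCC2 (0.25), NFE2L2 (-0.20), PTGS2 (1.00), SOD2 (0.21), TNFRSF17 (-0.98), and VNN1 (-0.35). The group was also smaller there, so a lost call does not by itself mean that those pigs led the change. OASL, the only member of 28 interferon-stimulated genes to pass (3.11, adjusted p = 0.00134), followed pig 6, at 27.6 CPM against at most 3.68 CPM in the other SLE-BDL pigs. ISG15 (1.74, adjusted p = 0.146) and MX1 (1.19, adjusted p = 0.294) did not pass. In their labels pigs 6 and 7 share an identifier number, and pigs 5 and 9 carry a further number each, and their part in these values was not tested. OASL lost its call without SLE-BDL 6 (1.60, adjusted p = 0.0584).

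**Figure D4:**
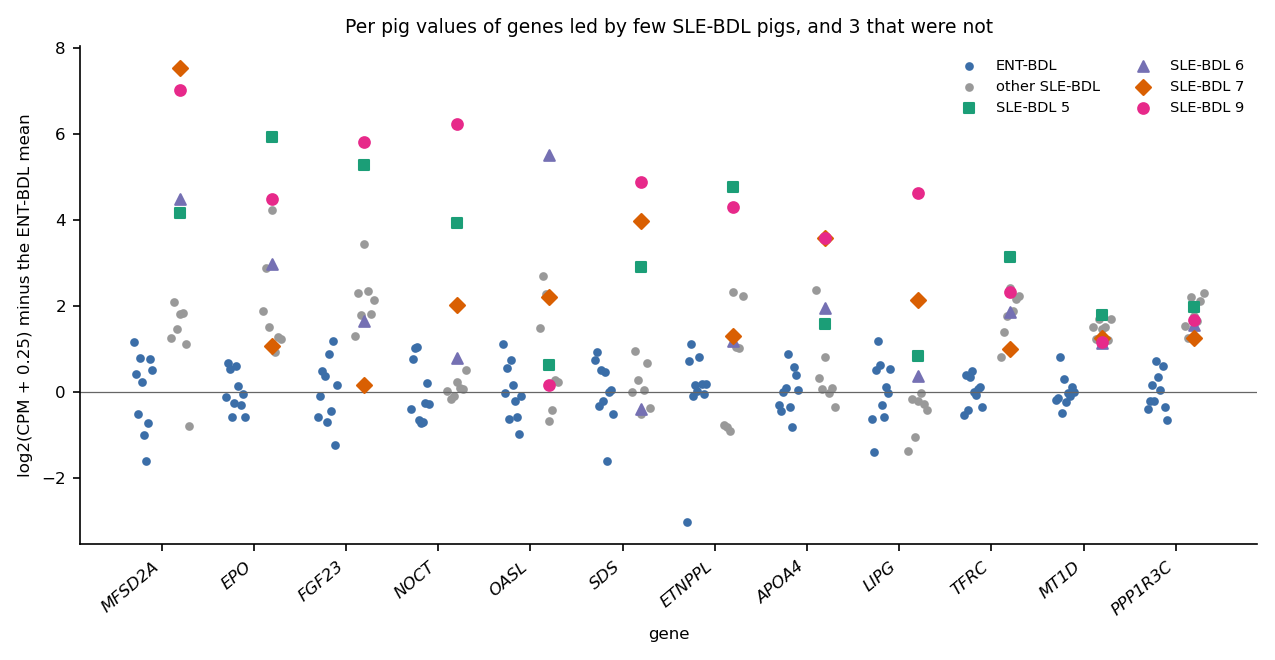
Log2(CPM + 0.25) minus the ENT-BDL mean (y axis) of 12 genes (x axis) in each ENT-BDL and SLE-BDL pig, with SLE-BDL 5, 6, 7, and 9 marked. For NOCT, SDS, and LIPG pigs 9, 5, and 7 lie above the other SLE-BDL pigs, which sit near the ENT-BDL mean, and TFRC, MT1D, and PPP1R3C are higher across the whole group.

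Acute-phase proteins, which the liver secretes in inflammation, rose in 6 of 28 genes and fell in 5. CP, the copper protein ceruloplasmin, was at 273, 429, and 983 CPM in ENT-BDL and at 378, 1260.4, and 3178 CPM in SLE-BDL (1.63, SE 0.39, adjusted p = 0.00167), with 6 of 11 SLE-BDL pigs above the enteral range. ITIH4, a plasma glycoprotein, rose from a median of 1427 to 3199 CPM (1.33, SE 0.21, adjusted p = 4.4e-06), and FGA, a fibrinogen chain, rose by 0.57. HP, the hemoglobin-binding protein haptoglobin, was at 0.87 (adjusted p = 0.0217) and CRP, C-reactive protein, at 0.96 (adjusted p = 0.0254), and without SLE-BDL 5, 7, and 9 they were at 0.40 and -0.13. Both also lost their calls with the identifier number as a block, HP at 0.57 (adjusted p = 0.15) and CRP at 0.79 (adjusted p = 0.0931), and with edgeR on the 21 libraries alone (adjusted p = 0.0726 and 0.125). The plasma proteins A1BG (-1.47), ITIH1 (-0.53), ITIH2 (-0.44), and TTR (-0.52) and the receptor IL6R (-0.39) fell, and ORM1 (0.16) and SAA2 (0.01) did not pass. Coagulation and complement genes fell in 8 of 37 and rose in none, all less than 2-fold, with the anticoagulant PROC at -0.52 and the adhesion protein VTN at -0.47. HP lost its call without SLE-BDL 5 or 7 (nearest to 0 0.57, highest adjusted p 0.119). CRP lost its call without SLE-BDL 5, 7, or 9 (nearest to 0 0.60, highest adjusted p 0.153).

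Inflammatory signals passed in few genes. Of 35 chemokine and signaling genes 31 did not pass, CCL2 (-0.07), CCL5 (0.08), CXCL10 (0.00), and SOCS3 (0.55) among them. CXCL8, a neutrophil chemokine, was at 16.2, 34.6, and 65.2 CPM in ENT-BDL and at 3.90, 11.8, and 22.9 CPM in SLE-BDL (-1.54, SE 0.52, adjusted p = 0.0278), and CX3CL1, a membrane-bound chemokine, was at -0.89 (adjusted p = 0.043). CXCL14 rose by 1.59 (SE 0.33, adjusted p = 3.2e-04) and PTGS2, the inducible cyclooxygenase, by 1.40. CXCL8 lost its call without ENT-BDL 4 (-1.40, adjusted p = 0.0526). CX3CL1 lost its call without ENT-BDL 1, 6, 7, 8, 9, or 10 or SLE-BDL 3, 4, 6, 7, 8, 9, 10, or 11 (nearest to 0 -0.70, highest adjusted p 0.128).

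Of 43 matrix genes 4 rose and none fell: TIMP1 (1.44) and TIMP2 (0.34), inhibitors of matrix proteases, LOXL4 (0.80), a collagen crosslinker, and BGN (0.42), a proteoglycan, which lost its call with SLE-sham 9 and 10 summed (adjusted p = 0.0512). Among all tested genes 9.88% rose and 9.45% fell, so the share of matrix genes that rose was near that of all genes. The collagens COL1A1 (0.46, adjusted p = 0.355), COL1A2 (0.15) and COL3A1 (0.06), and TGFB1 (0.04) did not pass. MMP7, a matrix protease, did not pass either (-0.98, adjusted p = 0.182), but it did at -0.82 without ENT-BDL 1 and ENT-sham 2 (adjusted p = 0.0135), and at -0.99 and -0.98 with edgeR and DESeq2 on the 21 libraries alone (adjusted p = 0.0224 and 0.0042). TIMP1 lost its call without SLE-BDL 2, 6, or 7 (nearest to 0 1.11, highest adjusted p 0.0796). TIMP2 lost its call without ENT-BDL 4, 5, 6, 7, or 10 or SLE-BDL 1, 2, 4, 5, 8, or 9 (nearest to 0 0.30, highest adjusted p 0.097). LOXL4 lost its call without ENT-BDL 3, 4, 5, 6, 7, 9, or 10 or SLE-BDL 1, 2, 6, or 7 (nearest to 0 0.61, highest adjusted p 0.114). BGN lost its call without ENT-BDL 1, 3, 4, 5, 7, or 10 or SLE-BDL 1, 2, 4, 5, 6, or 9 (nearest to 0 0.29, highest adjusted p 0.16).

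T and NK cell markers fell in 7 of 15 genes and rose in none, 5 of them called 2-fold, all at low levels. CD3G, a chain of the T cell receptor complex, was at 0.514, 1.06, and 2.98 CPM in ENT-BDL and at 0.121, 0.425, and 1.02 CPM in SLE-BDL (-1.49, SE 0.39, adjusted p = 0.00407), at most 42 counts in a pig. LCK, a T cell kinase, fell by 1.02 (SE 0.26, adjusted p = 0.00372), with 9 of 11 SLE-BDL pigs below all ENT-BDL pigs. CD5 (-1.06), CD8A (-1.01), CD3D (-1.0), KLRK1 (-0.76), and CD4 (-0.49) had lower calls, and CD3E did not pass (-0.73, adjusted p = 0.149). The summed level of the list was 35.9, 51.7, and 70.5 CPM in ENT-BDL and 27.5, 36.2, and 53.9 CPM in SLE-BDL, so that the groups overlapped. Of 12 B and plasma cell genes JCHAIN (-1.21, SE 0.27, adjusted p = 9.4e-04) and TNFRSF17 (-1.04) fell and none rose, whereas DERL3, which plasma cells also express, was higher. CD8A lost its call without ENT-BDL 6, 8, or 10 or SLE-BDL 8, 9, or 10 (nearest to 0 -0.90, highest adjusted p 0.0651). CD3D lost its call without ENT-BDL 5, 8, or 9 or SLE-BDL 1, 2, 4, 5, 7, or 9 (nearest to 0 -0.72, highest adjusted p 0.159). KLRK1 lost its call without ENT-BDL 4 or 5 (nearest to 0 -0.67, highest adjusted p 0.0571). CD4 lost its call without ENT-BDL 3 or 9 (nearest to 0 -0.42, highest adjusted p 0.0556).

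Markers of the other liver cells passed in few genes. Of 14 hepatocyte genes APOB rose and TTR fell, ALB, albumin, did not pass (0.11, SE 0.15), and the summed level was 71344, 99113, and 135234 CPM in ENT-BDL and 75902, 113733, and 152424 CPM in SLE-BDL. Of 19 cholangiocyte genes CLDN7 fell from a median of 18.2 to 7.85 CPM (-1.13, SE 0.23, adjusted p = 2.1e-04) and CLDN4 rose (0.53), both claudins of epithelial junctions, while KRT7 (0.02), KRT19 (0.43), and SOX9 (-0.34) did not pass. Of 18 macrophage genes CLEC4F (-0.93) and TIMD4 (-0.51), both of Kupffer cells, fell, and CD163 (-0.05) and CD68 (0.10) did not pass. Of 15 stellate cell genes LRAT, which stores retinol, fell (-0.55) and ACTA2 did not pass (0.37), and of 15 endothelial genes 0 passed. Of 13 erythroid genes HBB, a globin, fell (-1.13, adjusted p = 0.0114) and 12 had a difference below 0, with a list median of -0.41. Their summed level was 351.2, 1171, and 3905 CPM in ENT-BDL and 135, 578, and 1429 CPM in SLE-BDL, so that the groups overlapped. Of 10 neutrophil genes MPO, a granule enzyme, rose (1.63) and 8 had a difference above 0, with a list median of 0.89, the highest of the 40 lists. Their summed level was 11.3, 23.5, and 49.3 CPM in ENT-BDL and 20.1, 29.0, and 68.5 CPM in SLE-BDL, again with overlap. Of 6 muscle genes CKM rose (1.91) at no more than 1.62 CPM and TNNT1 fell (-0.85). CLEC4F lost its call without ENT-BDL 3, 5, 9, or 10 or SLE-BDL 4, 5, 7, 8, 9, or 11 (nearest to 0 -0.69, highest adjusted p 0.141). TIMD4 lost its call without ENT-BDL 3, 5, or 9 (nearest to 0 -0.41, highest adjusted p 0.0686). HBB lost its call without ENT-BDL 5 (-0.79, adjusted p = 0.0743). TNNT1 lost its call without ENT-BDL 1, 3, or 8 or SLE-BDL 3, 5, or 6 (nearest to 0 -0.75, highest adjusted p 0.0703).

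Cell cycle genes fell in 8 of 30 and rose in none, among them the topoisomerase TOP2A (-0.58) and the kinetochore protein CENPF (-0.71), while MKI67 did not pass (-0.39, adjusted p = 0.0934). Of 24 glutathione and NRF2 genes, among others, the factor NFE2L2 (-0.25) and its targets NQO1 (-0.79), HMOX1 (-0.47), and GCLM (-0.40) fell, and SOD2 (0.54) and GPX4 (0.41) rose. Of 19 retinoid and alcohol genes, among others, DHRS4 (0.87) and RARA (0.47) rose, and DHRS3 (-0.63) fell beside LRAT and TTR. NQO1 lost its call without ENT-BDL 10 (-0.66, adjusted p = 0.0507). DHRS4 lost its call without SLE-BDL 9 (0.65, adjusted p = 0.065).

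Clock genes fell in 5 of 20 and rose in 3. DBP (-1.01), HLF (-0.75), NR1D2 (-0.65), and PER3 (-0.42), outputs and repressors of the clock, were among those that fell. BHLHE40, a repressor that hypoxia also induces, rose by 1.41, USP2, a deubiquitinase, by 1.10, and NFIL3, a repressor of DBP targets, by 0.54. The core genes ARNTL (0.20), PER1 (0.18), PER2 (0.13), CRY1 (0.29), NPAS2 (0.53), and NR1D1 (-0.47) did not pass. Without SLE-BDL 5, 7, and 9, USP2 was at 0.38 (adjusted p = 0.261) and PER3 at -0.36 (adjusted p = 0.0666). Within the identifier number that 8 of the pigs carry, DBP was at -0.099 (adjusted p = 0.89) and PER3 at -0.16 (adjusted p = 0.674), whereas HLF kept its call there. NFIL3 lost its call without SLE-BDL 9 (0.29, adjusted p = 0.086).

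The same 2 diets in pigs without ligation, SLE-sham (10 libraries under 9 pig codes) and ENT-sham (12 libraries), gave 846 genes called 2-fold (5.22%). With the SLE-sham libraries that share a code summed to 1, this count was 852, 807 of them among the 846. Of the 505 genes called in BDL pigs 248 were called in sham pigs in the same direction, which is 49.1% of the BDL calls and 29.3% of the sham calls. Without ENT-BDL 1 and ENT-sham 2 the sham count was 929, and 242 genes were shared in direction, 48.3% of the BDL calls and 26.05% of the sham calls. HAMP (-7.66), TFRC (1.54), FMO5 (-3.33), DERL3 (3.34), CRELD2 (2.16), MT1D (1.33), LEPR (-3.12), CYP7A1 (-3.86), and G6PC (-2.80) passed in sham pigs too, in the direction seen with ligation, as 27.5% of all tested genes passed there at any fold. The difference between the diet contrasts of BDL and sham pigs itself passed for 369 genes (2.28%), 43 of them among the 505, and 36 of the 43 changed more in BDL pigs. Without both matching libraries it passed for 726 genes, 368 of the 369 among them. Of the 726, 60 were among the 501 genes called in BDL pigs in that fit. With SLE-sham 9 and 10 summed the difference passed for 379, 357 of the 369 among them.

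**Figure D5:**
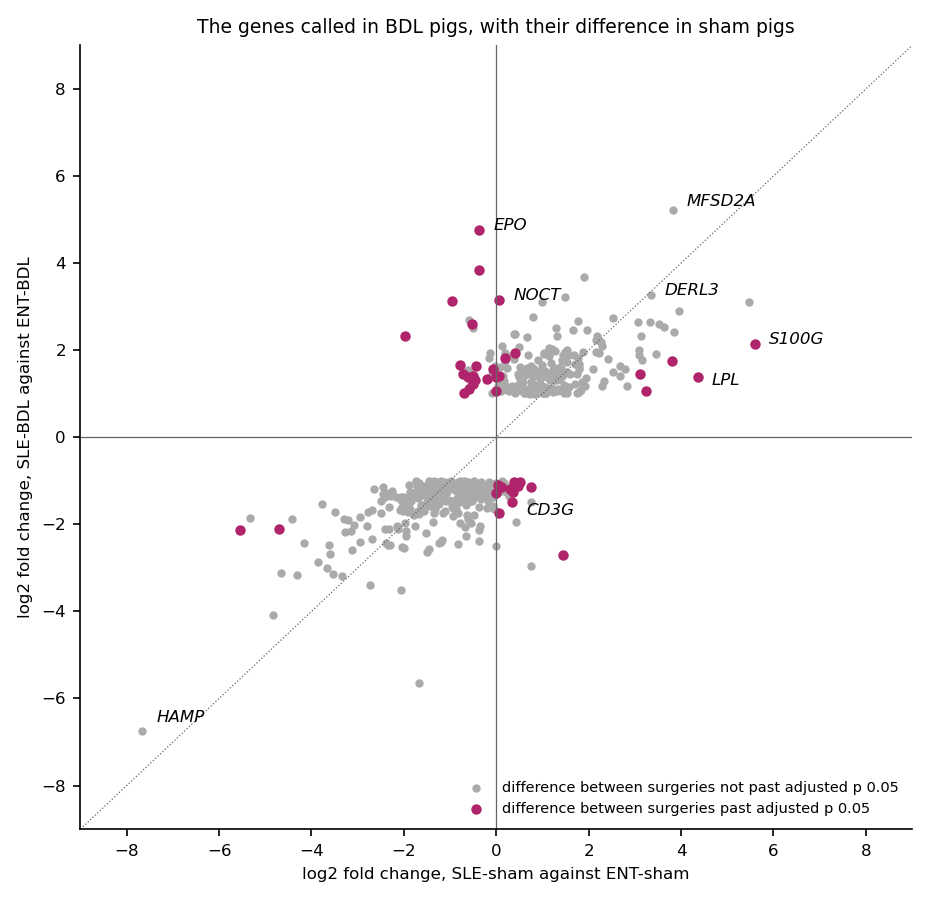
Log2 fold change of SLE over ENT in sham pigs (x axis) and in BDL pigs (y axis) for the 505 genes called 2-fold in BDL pigs, with the 43 genes whose change differed between surgeries in magenta. HAMP and DERL3 lie near the dotted line of equal change, whereas EPO and NOCT lie near 0 on the sham axis.

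Among genes described above, several differed by surgery. EPO had a difference of 4.76 in BDL and -0.36 in sham pigs (difference of the differences 5.12, SE 0.86, adjusted p = 4.1e-04). The acute-phase genes CP (2.07), CRP (2.08), HP (1.93), ITIH4 (1.53), and FGA (0.93) all passed this test with the higher change in BDL. HP and CRP fell with SLE in sham pigs (-1.06 and -1.12), whereas their higher calls in BDL pigs were lost with the identifier block and without SLE-BDL 5, 7, and 9, where CRP was at -0.13. ALAS1 (1.53), SLC39A14 (0.69), LDHA (1.16), BHLHE40 (1.35), and NOCT (3.09) also changed more upward in BDL. NOCT lost this call with SLE-sham 9 and 10 summed (3.03, adjusted p = 0.0518), as 1 of the 25 named genes that had it. The BDL differences of NOCT and LDHA without SLE-BDL 5, 7, and 9 were 0.05 and 0.37 (adjusted p = 0.959 and 0.103). CD3G (-1.84, adjusted p = 0.0482) and LCK (-1.40, adjusted p = 0.0232) passed in the lower direction, with sham differences of 0.35 and 0.38 that did not pass by themselves.

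Other genes changed less in BDL pigs than in sham pigs or in BDL pigs alone. S100G, a calcium-binding protein, rose by 2.14 in BDL and by 5.61 in sham pigs (difference -3.47, SE 0.64, adjusted p = 0.00136), and LPL by 1.40 and 4.37 (difference -2.97). SQLE, of cholesterol synthesis (0.68), and ABCG5, a sterol exporter (0.97), rose with SLE in sham pigs and did not pass in BDL pigs, where ABCG5 was at -0.30, and both passed the test of the difference (-0.81 and -1.27). SCT, the hormone secretin, fell without overlap in BDL pigs, where it ranged from 6.78 to 15.6 CPM in ENT-BDL and from 1.40 to 5.20 CPM in SLE-BDL (-1.74, SE 0.24), and was at 0.06 in sham pigs (difference -1.80, adjusted p = 0.00138). CLDN7 also differed (-1.24, adjusted p = 0.0249).

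MLE-BDL pigs (8), which received PN with the mixed lipid emulsion SMOFlipid, were set beside these values. Between MLE-BDL and SLE-BDL 154 genes passed at any fold (0.95%), 24 of them among the 505. HAMP was at 0.0515, 0.897, and 1.5 CPM in MLE-BDL, and the MLE-BDL medians were 109 CPM for TFRC, 20.1 for DERL3, 19.8 for FMO5, and 3.20 for CYP7A1. None of the 5 genes passed the test between MLE-BDL and SLE-BDL, with log2 differences of 0.17 (SE 0.62), -0.24 (SE 0.19), -0.65 (SE 0.37), 0.05 (SE 0.33), and -1.45 (SE 0.63). MFSD2A (-4.16, adjusted p = 0.00411), EPO (-2.85, adjusted p = 0.00754), FGF23 (-2.27, adjusted p = 0.0227), HP (-1.64, adjusted p = 0.00366), ITIH4 (-1.09, adjusted p = 0.007), and SULT2A1 (-1.83, adjusted p = 0.00519) were lower in MLE-BDL. The SLE-BDL pigs enter this comparison and the main one, so that a high value in a few of them moves both. The 2 groups have only 2 identifier numbers in common, and with that number as a block 10 genes were called 2-fold between them, against 64 without it (0.395%).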

How the data were processed

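The series holds 60 liver mRNA libraries under 59 pig codes, and 21 libraries (11 SLE-BDL, 10 ENT-BDL) carry the comparison described above. The deposited values are raw read counts per gene. Per the submitters' processing notes the authors used HISAT2 2.0.5, StringTie 1.3.3, and featureCounts 1.5.0-p3 with pig genome Sscrofa11.1, with no normalization of the counts. Coordinates are those in the deposited table. Features without a gene name (24) took 0.0084 to 0.0247% of the counts of the 21 libraries and were left out.

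All 60 libraries were fitted in 1 model over 6 groups with edgeR 4.0.16 (R 4.3.3, TMM scaling, filterByExpr, robust quasi-likelihood test), and p-values were adjusted over the 16210 tested genes. The tests of the diet difference by ligation, of sham pigs, and of MLE-BDL against SLE-BDL were contrasts of that model. On simulated counts with 200 genes changed 3-fold in this comparison, 199 were found with 0 false calls. The simulation gave all genes the same dispersion, changed only genes with ample counts, and held no outlying pigs or identifier groups. It therefore does not give the error rate in these data. Each of the 21 libraries carries a pig code of its own, whereas SLE-sham 9 and 10 share 1 code and were fitted as separate libraries, so that p-values of contrasts with sham pigs measure the spread between libraries. The number of counts limits precision, most of all for genes below 1 CPM.

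Named genes were the 12 largest rises and the 12 largest falls among called genes that had an official symbol and averaged 2 or more in log2 CPM, the marked genes of 40 lists, and up to 4 further called members per list. Other list members, the glycogen genes, ALAS1, SCT, and the genes named for a difference by surgery were added after their values were seen. Some genes are not reported here. The members and lists were chosen with earlier results of these data known. Alternatives were RLE scaling, no filter or a minimum of 10 counts in every library, DESeq2 1.42.0, the 21 libraries alone, replicate and identifier blocks, leaving out pigs, and, added after the data were seen, the sum of SLE-sham 9 and 10.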

Additional observations from a re-analysis of the deposited data

Results flagged for a closer look

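In 25 of the 269 genes named in the report, some of which were named because of it, the change from ENT to SLE differed between BDL and sham pigs by the test of the difference itself (edgeR, adjusted p under 0.05), as it did in 2.28% of all tested genes. The values below are the log2 change in BDL minus that in sham. Among iron, heme, and metal genes they were 2.07 for CP, 1.93 for HP, 0.69 for SLC39A14, 1.53 for ALAS1, and -0.69 for SLC39A10. Among hypoxia and glycolysis genes they were 5.12 for EPO and 1.16 for LDHA. Among acute-phase genes they were 2.08 for CRP, 1.53 for ITIH4, 0.93 for FGA, and 0.48 for IL6R. Among lipid, bile, and amino acid genes they were -0.81 for SQLE, -1.27 for ABCG5, -2.97 for LPL, 0.69 for ABCC3, 1.23 for SLCO1A2, and -0.68 for PHGDH. For clock genes they were 3.09 for NOCT (adjusted p = 0.0518 with SLE-sham 9 and 10 summed), -0.67 for CRY1, and 1.35 for BHLHE40. For cell markers and hormones they were -1.24 for CLDN7, -1.84 for CD3G, -1.40 for LCK, -3.47 for S100G, and -1.80 for SCT.

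Dixon's criterion was applied to ENT-BDL pigs alone, and SLE-BDL pigs were not screened by it. In 22 of 269 named genes 1 ENT-BDL pig stood apart from the other 9 by that criterion, which chance meets in about 5% of groups. ENT-BDL 4 was the pig in 10 of them. Its values were 54.4 CPM for BMPR1A (the others 24.5 to 32.0), 179 CPM for DNAJB9 (the others 62.7 to 100.3), 166 CPM for QARS (the others 74.8 to 110.4), 109 CPM for SLC39A8 (the others 48.9 to 67.5), 67.9 CPM for CYP39A1 (the others 30.6 to 45.4), 2.70 CPM for NPC1L1 (the others 6.80 to 12.2), 7.03 CPM for CYP2C42 (the others 20.5 to 45.6), 296 CPM for FASN (the others 809.6 to 2344), 28.9 CPM for PER1 (the others 54.5 to 104), and 26.2 CPM for SLC20A2 (the others 31.2 to 35.9). ENT-BDL 1 was at 1.06 CPM for ETNPPL (the others 9.72 to 22.8), 403 CPM for TAT (the others 572 to 772), and 44.7 CPM for AMT (the others 64.2 to 95.1). ENT-BDL 10 was at 55.7 CPM for MCCC2 (the others 38.6 to 46.8). ENT-BDL 2 was at 199 CPM for ACOX2 (the others 244 to 306) and 29.9 CPM for CXCL14 (the others 5.88 to 13.9). ENT-BDL 3 was at 0.231 CPM for TNFRSF17 (the others 0.625 to 0.905). ENT-BDL 6 was at 0 CPM for MT4 (the others 0.215 to 0.691). ENT-BDL 7 was at 1035 CPM for IGFBP2 (the others 1542 to 1993) and 74.1 CPM for STARD4 (the others 105 to 152). ENT-BDL 8 was at 13.9 CPM for ARNTL (the others 18.9 to 24.9). ENT-BDL 9 was at 3.54 CPM for CD3D (the others 0.860 to 1.60). Among the ENT-BDL libraries ENT-BDL 4 had the fewest counts on named genes (15193337), the fewest genes with a count (18729), and the highest shares of mitochondrial mRNA (4.60%), of the top 10 genes (20.8%), and of features without a name (0.0247%). Their part in its values was not tested, and the leave-one-out fits in the report show the calls that rest on it.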

How the results depend on the processing

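SLE-BDL and ENT-BDL differed in 505 genes called 2-fold. This count was 200 among genes with at least 10 counts in every library, 183 within the identifier number that 8 of the pigs carry, and 3134 at any fold change, and it ranged from 445 (without ENT-BDL 10 or SLE-BDL 9) to 530 (without ENT-BDL 2) when 1 pig was left out. It was 506 with RLE scaling, 658 with no filter on low counts, 586 with DESeq2, 541 with the identifier number as a block, 355 and 565 with edgeR and DESeq2 on the 21 libraries alone, and 382 over shared identifier numbers. Without SLE-BDL 5, 7, and 9 it was 376 and without 5 and 9 it was 392, both chosen after the data were seen. Genes whose diet difference depended on ligation numbered 369, and 726 without ENT-BDL 1 and ENT-sham 2. With SLE-sham 9 and 10, which share 1 pig code, summed after the data were seen, the counts were 502 in BDL pigs, 379 for the difference by ligation, 852 in sham pigs, and 61 between MLE-BDL and SLE-BDL, and BGN alone of the named genes lost its call in BDL pigs. The sham comparison gave 846, 929 without ENT-BDL 1 and ENT-sham 2, and 366 with at least 10 counts in every library. MLE-BDL against SLE-BDL gave 64, and 39 with that minimum, 114 with DESeq2, and 10 with the identifier block, 7 of them shared with the 64.

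Of 269 named genes 201 had a call, 155 kept it whichever pig was left out, and 41 kept it under all other alternatives. The call was lost by 157 within that identifier number, where 195 of the 201 kept their sign and 3 were not tested, by 58 without SLE-BDL 5, 7, and 9, by 43 with edgeR on the 21 libraries, and by 67 over shared identifier numbers. The pigs of that number are part of the fit that gave the 201 calls, so their shared signs are not independent of it. Signs reversed without SLE-BDL 5, 7, and 9 for ANGPTL4 (-0.14), LIPG (-0.48), and CRP (-0.13), and within that number for LIPG (-1.01), CX3CL1 (1.12), and DHRS4 (-0.11). The cause was not tested. Genes with few counts limit the smaller lists.

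Replicate and identifier numbers overlap in part, so whether replicate numbers pair the pigs cannot be told. Same-numbered pigs of the 2 groups correlated at -0.081 to 0.259 over 10 pairs (median 0.129), and 4 of 10 correlated best with their own number. Pairs of pigs that share an identifier number had a mean correlation of 0.124 (21 pairs), against -0.029 for those that do not (89 pairs). Which of the numbers groups the pigs more was not tested. With the identifier number as a block APOB, LIPG, HP, CRP, CX3CL1, SLCO2B1, APOC2, DHRS4, and CD3D lost their calls, and CYP27A1, ABCC4, CYP1A2, GHR, CPT1A, SOCS3, CD3E, NPAS2, and ABCG5 gained one. Under that block 271 of the 369 genes whose diet difference depended on ligation passed and 98 were lost, in a larger set of 255 higher and 211 lower genes, and of the 846 genes called in sham pigs 658 were called and 188 were lost, in a set of 862. With a replicate block 490 genes were called, 442 of them shared with the 505, and 364, 832, and 60 in the test of the diet difference by ligation, in sham pigs, and between MLE-BDL and SLE-BDL.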
